A study of Mus musculus with 2 samples.

Results

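The genomic intervals around 3 orphan nuclear receptor genes, Nr2f1, Nr2f2 and Nr2e1, held 24 enrichment peaks in an shDnmt3L library, of 45579 in its list, and 11 peaks in an shGFP library, of 55292. The intervals were set on the mouse build mm9 as chr13:78250001-78420000 for Nr2f1, chr7:77400001-77600000 for Nr2f2 and chr10:42220001-42400000 for Nr2e1. A peak was a member when its midpoint lay inside. One further shGFP peak straddled the lower end of the Nr2e1 interval, with 969 bp inside, and was not counted. These genes were chosen with results of the same lists known. Peak number, width, sharing and score inside the intervals are therefore a description of the loci and were not tested.

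Both libraries came from E14 mouse embryonic stem cells, a pluripotent line. Cells were transfected with a short hairpin RNA against Dnmt3L (shDnmt3L, 1 library) or, as the control, with a hairpin against GFP (shGFP, 1 library). Dnmt3L is a catalytically inactive partner that assists the de novo DNA methyltransferases. The labels give no clone, time after transfection or level of Dnmt3L, and peak lists cannot check the knockdown. Each group was a single library. The differences therefore carry no replicate check and no test, and culture and hairpin cannot be told apart. The labels name the assay MeDIP and the design names 5-methylcytosine, whereas the protocol captured DNA with a kit for glucosylated 5-hydroxymethylcytosine. The peaks are thus called enrichment peaks, with the modification unnamed. A score came with each peak from the authors' peak caller, higher for a less likely chance enrichment. It serves here mainly to rank peaks within 1 list. An alternative setting applied the same minimum score of 100 to both lists, and scores of paired peaks are printed side by side. The scores were not scaled between the lists. Peaks of the whole list had a median width of 2376 bp in shDnmt3L and 1998 bp in shGFP, and the values at the loci stand beside that difference.

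Nr2f1 and Nr2f2, also called COUP-TFI and COUP-TFII, and Nr2e1, also called Tlx, encode transcription factors of the nuclear receptor family. They are termed orphan receptors because no physiological ligand was known when they were cloned, and they act largely as repressors of transcription. Each binds DNA through a pair of zinc fingers that reads hormone response half-sites. In the mouse, Nr2f1 patterns the neocortex and neural crest derivatives. Nr2f2 sets venous and atrial identity, and Nr2e1 maintains neural stem cells of the forebrain and the progenitors of the retina. In embryonic stem cells, genes of this developmental class are commonly held at low expression, with Polycomb marks over CpG-rich DNA at and around them.

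Both cytosine modifications named by the sources lie mainly at CG dinucleotides in mammalian DNA. The 250 bases before a start of each gene are printed for this reason, 5′ to 3′ on the gene's strand, with every CG in capitals. The sequences are RefSeq's on GRCm38.p6, at chr13:78198874-78199123, chr7:70366747-70366996 and chr10:42583591-42583840, all on the minus strand. That build differs from the mm9 of the peaks, so whether these bases lie under a peak was not analysed here.
Nr2f1: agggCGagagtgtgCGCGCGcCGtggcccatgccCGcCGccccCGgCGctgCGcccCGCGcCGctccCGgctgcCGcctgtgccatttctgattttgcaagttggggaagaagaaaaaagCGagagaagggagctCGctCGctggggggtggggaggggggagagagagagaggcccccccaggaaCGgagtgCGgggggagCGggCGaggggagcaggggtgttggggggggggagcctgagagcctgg
Nr2f2: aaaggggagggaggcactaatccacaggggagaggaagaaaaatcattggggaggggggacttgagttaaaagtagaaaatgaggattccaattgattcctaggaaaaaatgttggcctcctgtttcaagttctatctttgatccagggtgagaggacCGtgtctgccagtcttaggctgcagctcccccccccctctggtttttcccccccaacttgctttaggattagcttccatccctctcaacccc
Nr2e1: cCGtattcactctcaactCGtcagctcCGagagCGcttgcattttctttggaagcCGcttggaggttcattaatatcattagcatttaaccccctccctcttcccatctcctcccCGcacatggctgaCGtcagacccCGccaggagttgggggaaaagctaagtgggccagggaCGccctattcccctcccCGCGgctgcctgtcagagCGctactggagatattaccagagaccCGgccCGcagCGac
The Nr2f1 stretch held 22 CG, the Nr2e1 stretch 15 and the Nr2f2 stretch 1, against a median of 6 over 32851 RefSeq promoters cut to the same length. At least 22 CG were found in 14.8% of these promoters, at least 15 in 27.3% and at least 1 in 92.1%. A second Nr2f1 entry, not printed, held 2 CG, and at least 2 were found in 81.2% of the promoters. The counts thus put the printed Nr2f1 entry and Nr2e1 on the CG-rich side of the table. The second Nr2f1 entry and the single Nr2f2 entry lie on the CG-poor side, and other Nr2f2 starts were not analysed here.

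All 3 intervals had more DNA under called peaks in the shDnmt3L library than in the shGFP library. Summed over them, peaks covered 117 kb in shDnmt3L and 21.0 kb in shGFP, a ratio of 5.59. The shDnmt3L peaks took up 21.3% of the intervals and the shGFP peaks 3.81%. Peak numbers were 24 in shDnmt3L (exact 95% Poisson interval 15.4 to 35.7) and 11 in shGFP (5.49 to 19.7). These and the following confidence limits reflect counting error alone, with neighbouring peaks taken as independent. In shDnmt3L, 17 of the 24 peaks overlapped no shGFP peak (70.8%, Wilson 95% interval 50.8 to 85.1%), where 12.6% of the whole shDnmt3L list did. In shGFP, 4 of the 11 peaks overlapped no shDnmt3L peak (36.4%, 15.2 to 64.6%), where 25.5% of the whole shGFP list did. The intervals were picked on these values, so nothing is read from the gap to the whole lists.

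**Figure D1:**
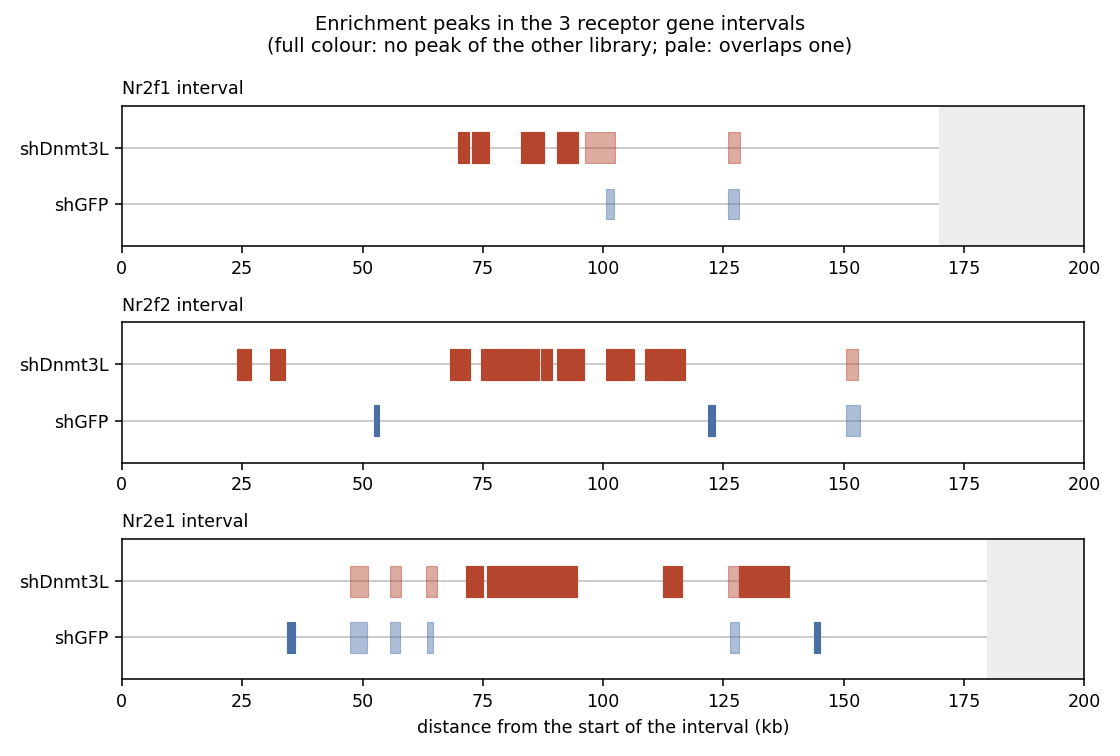
Position of every peak in the Nr2f1, Nr2f2 and Nr2e1 intervals, as distance in kb from the start of the interval, with shDnmt3L above shGFP; grey marks the space beyond the shorter intervals. Most shDnmt3L peaks without a partner, in full colour, sit in runs near the middle of each interval. The shGFP list has 1 peak in the run at Nr2f1, 0 in the run of 7 peaks at Nr2f2, and 3 and 1 in the runs at Nr2e1.

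Nr2f1 had the fewest peaks of the 3 loci and none as wide as the widest of the others. Its interval of 170 kb held 6 shDnmt3L peaks that covered 23.4 kb and 2 shGFP peaks that covered 4.04 kb, a ratio of 5.81 or a log2 ratio of 2.54. Of the shDnmt3L peaks, 5 made up 1 run at chr13:78319836-78352437, where 21.0 kb of 32.6 kb was covered. The shGFP list had 1 peak there, at the upper end of the run, which covered 5.41% of it. The 4 shDnmt3L peaks without a partner were 2258, 3623, 4819 and 4185 bp wide, in genome order. Their distance to the nearest shGFP peak was 28.4, 24.2, 12.8 and 5.83 kb, in the same order, so all 4 lay below the shGFP peak of the run.

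The widest and highest-scoring shDnmt3L peak at Nr2f1 was the last of this run, chr13:78346290-78352437, at 6148 bp and with a score of 329. It lay over a shGFP peak of 1764 bp with a score of 69.7, chr13:78350517-78352280. Of the extra width in shDnmt3L, 4227 bp lay below the start of the shGFP peak and 157 bp beyond its end. The extra width was thus almost all on the side facing the run. A second pair further up was close to equal, with 2396 bp in shDnmt3L and 2272 bp in shGFP. No Nr2f1 peak reached 10 kb in either list.

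Within the intervals as set, Nr2f2 had the largest ratio and 1 shared peak. Its interval of 200 kb held 10 shDnmt3L peaks that covered 46.7 kb and 3 shGFP peaks that covered 5.16 kb, a ratio of 9.04 or a log2 ratio of 3.18. Of the 10 shDnmt3L peaks, 9 had no shGFP partner, and these made up 44.2 kb, or 94.8% of the covered length. A group of 7 formed a run at chr7:77468138-77517052. In that run 38.2 kb of 48.9 kb, or 78.2%, was covered in shDnmt3L, with gaps of 183 to 4520 bp between peaks. The shGFP list had no peak in the run. The log2 ratio was 4.02 with lists of equal length, 3.78 at a minimum score of 100 and 1.60 with the interval widened by 100 kb at each end. The cut to equal length removed only shGFP peaks, so it could not lower the ratio.

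The widest Nr2f2 peak in shDnmt3L was chr7:77474545-77486649, at 12.1 kb and with a score of 552, the highest at the locus. Its nearest shGFP peak was 21.2 kb away. Beside it in the run stood peaks of 5668, 5846 and 5670 bp with scores of 266, 307 and 310, and 3 peaks of 4170, 2293 and 2494 bp with scores of 209, 52.7 and 85.3. The lowest of these scores was close to the floor of the list, 50. The same run therefore held both strong and barely called stretches. Unshared peaks of 2970 and 3028 bp stood apart from the run at chr7:77423925-77433870.

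In shGFP, the Nr2f2 interval had 2 weak peaks without a partner, of 977 bp with a score of 58.1 and of 1315 bp with a score of 52.3. They lay 14.7 and 4.78 kb outside the run, 1 on either side of it. The only shared Nr2f2 peak began on the same base in both lists, chr7:77550441. It measured 2444 bp in shDnmt3L and 2871 bp in shGFP, the only 1 of the 7 shared pairs at the 3 loci that was narrower in shDnmt3L.

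The run can be placed in the shDnmt3L list as a description, since the locus was picked on these same values. When peaks at most 10 kb apart were joined, a distance chosen after the data were seen, the list held 8890 runs of 2 or more peaks. Of these, 206 (2.32%) had no shGFP peak anywhere between their ends. The Nr2f2 run of 7 peaks was the second of the 206 by covered length, and 1 of 5 with 5 or more peaks. The median of the 206 was 6.54 kb, and the smaller Nr2f2 run, of 2 peaks, was number 117 in that order. No run at Nr2f1 or Nr2e1 was free of shGFP peaks.

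Nr2e1 held the widest peak and the highest score of the 3 loci. Its interval of 180 kb had 8 shDnmt3L peaks that covered 47.1 kb and 6 shGFP peaks that covered 11.8 kb, a ratio of 4.01 or a log2 ratio of 2.00. The 4 shDnmt3L peaks without a shGFP partner made up 36.6 kb, or 77.6% of the shDnmt3L length. The median width was 3717 bp over all shDnmt3L peaks and 1776 bp over all shGFP peaks of the interval. At this locus 2 shDnmt3L peaks passed 10 kb. These were chr10:42295822-42314540, of 18.7 kb with a score of 1469, and chr10:42348286-42358625, of 10.3 kb with a score of 723. Neither overlapped a shGFP peak. In the whole shDnmt3L list, peaks of 10 kb or more lacked a shGFP partner more often than peaks of all widths, of which 12.6% did. An unshared broad peak was therefore less rare in that list than the 12.6% alone would imply. The log2 ratio was 1.27 without the wider of them, 2.64 with lists of equal length and 0.84 with the interval widened by 100 kb at each end, where flanking peaks of both lists enter.

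The 18.7 kb peak made up 39.7% of the Nr2e1 covered length in shDnmt3L and ranked 118 of the 45579 scores in its list. Its nearest shGFP peak was 11.1 kb away. The 10.3 kb peak began 4 bp after the end of a shared peak, chr10:42346042-42348281, so a shared and an unshared stretch stood nearly end to end. The shared peak measured 2240 bp in shDnmt3L and 1856 bp in shGFP, and its end lay 3 bp beyond the shGFP end. The 10.3 kb peak therefore counts as unshared by a margin of 7 bp to its nearest shGFP peak. Peaks of 3676 and 3830 bp, at chr10:42291412-42295087 and chr10:42332543-42336372, completed the 4 unshared ones.

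Below the broad peak of Nr2e1 stood 3 shared peaks in a row. The strongest, at chr10:42275685-42277987 in shDnmt3L, measured 2303 bp and scored 257. Its shGFP partner began on the same base, measured 2205 bp and scored 273. The first of the row spanned 3758 bp in shDnmt3L and 3480 bp in shGFP, and the third 2256 bp in shDnmt3L and 1294 bp in shGFP. In shGFP, 2 weak peaks had no partner, of 1696 bp with a score of 55.1 and of 1226 bp with a score of 52.5. Nr2e1 thus combined peaks common to both lists with broad ones in shDnmt3L alone.

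**Figure D2:**
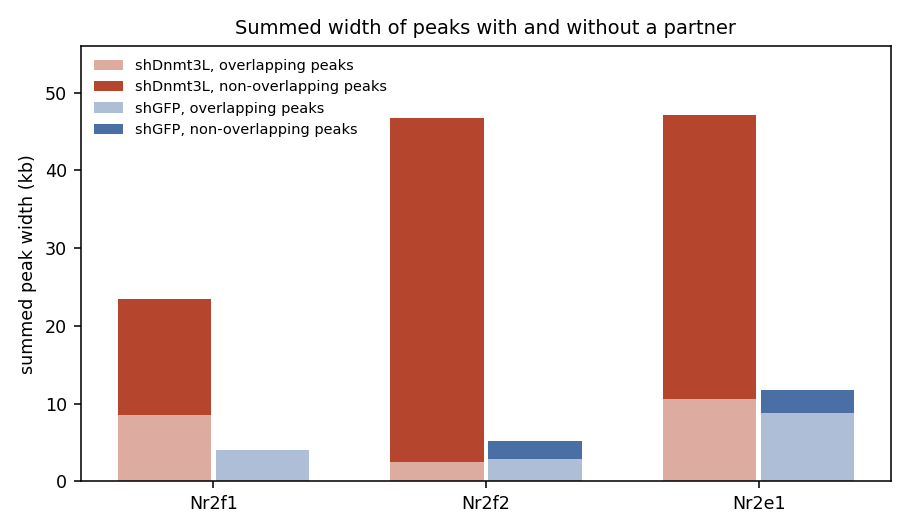
Summed peak width in kb per gene interval, with shDnmt3L at the left of each pair and shGFP at the right; the pale part is the summed width of peaks that overlap the other list, the full colour that of peaks that do not. Peaks without a partner made up 14.9, 44.2 and 36.6 kb of the shDnmt3L columns at Nr2f1, Nr2f2 and Nr2e1, against 0, 2.29 and 2.92 kb in shGFP.

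Across the loci, 3 of the 24 shDnmt3L peaks were at least 10 kb wide, where 0.535% of the whole shDnmt3L list was, and 0 of the 11 shGFP peaks, where 0.0524% of the whole shGFP list was. The widest peak was 2.71 times as wide in shDnmt3L as in shGFP at Nr2f1, 4.22 times at Nr2f2 and 5.38 times at Nr2e1. By length, 17.2% of the shDnmt3L covered stretch at Nr2f1 lay under shGFP peaks, 5.23% at Nr2f2 and 18.7% at Nr2e1. With intervals widened by 100 kb at each end these shares were 17.2% at Nr2f1, 17.4% at Nr2f2 and 36.9% at Nr2e1. At a minimum score of 100 they were 0% at both Nr2f1 and Nr2f2, where the cut split shared pairs. The shGFP peaks, with scores of 113 at Nr2f1 and 107 at Nr2f2, stayed. Their shDnmt3L partners, with scores of 78.3 and 92.45, were dropped. The order of the loci thus depended on the measure and on the interval ends. Within the intervals as set, Nr2f2 had the largest ratio of covered length and Nr2e1 the widest and highest-scoring peak. In the widened intervals the log2 ratio was larger at Nr2f1, at 2.54, than at Nr2f2, at 1.60. Widening brought no further peak of either list into the Nr2f1 interval, so the Nr2f1 values stayed as they were.

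Score ranks are given within each list. Outside the shared pairs they were not compared between lists, which differ in length and possibly in depth. The highest-scoring peak at Nr2f1 stood at the 91.5th percentile of the shDnmt3L list, and that of shGFP at the 58.9th of its own. At Nr2f2 the values were the 97.2th percentile in shDnmt3L and the 55.7th in shGFP. The shGFP value there was the 97.1th with the interval widened by 100 kb and the 7.70th at a minimum score of 100. At Nr2e1 the values were the 99.7th percentile in shDnmt3L and the 89.1th in shGFP. The median member stood at the 62.5th percentile at Nr2f1, the 70.6th at Nr2f2 and the 85.1th at Nr2e1 in shDnmt3L, and at the 43.8th, 14.3th and 45.7th in shGFP, in the same gene order. The 3 widest shDnmt3L members had the 3 highest scores, so width and score are not separate measures here.

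As a description of loci picked on such values, the unshared shDnmt3L peaks can be set beside their class in the list. Their median width was 4170 bp and their median score 216 (n = 17), against 2474 bp and 74.9 for all 5724 unshared peaks of the list. The 7 shared members had a median width of 2396 bp and a median score of 156, against 2366 bp and 103 for the 39855 shared peaks of the list. The 4 unshared shGFP members were weak, with scores from 52.3 to 58.1, against a median of 60.6 for the 14107 unshared shGFP peaks. What was seen in shGFP alone at these loci was thus near that list's floor of 50.01.

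**Figure D3:**
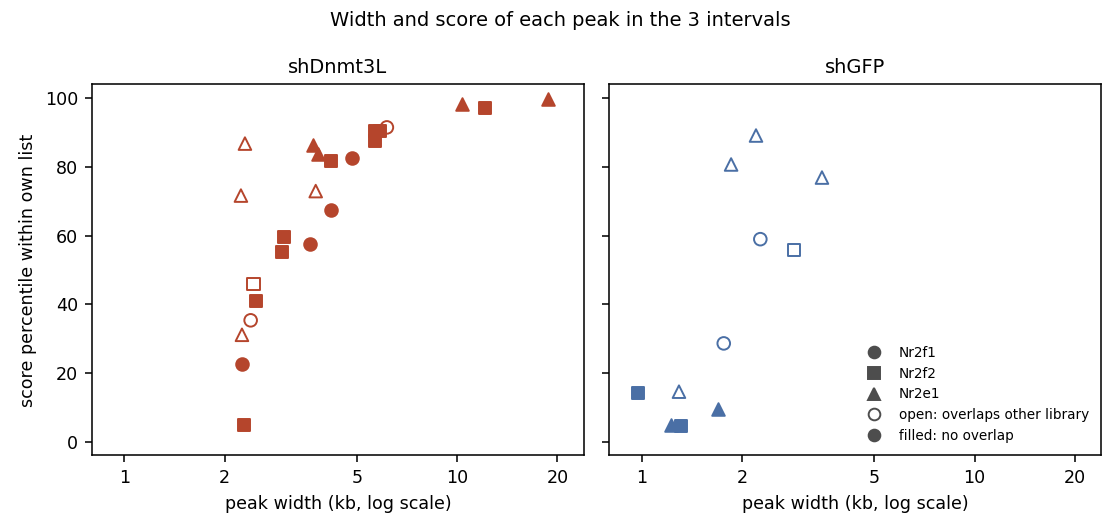
Width of each member peak in kb (log scale) against its score percentile within its own list, with shDnmt3L at the left and shGFP at the right; symbols mark the gene, and filled symbols have no partner in the other list. In shDnmt3L the filled symbols reach 18.7 kb and the 99.7th percentile, and in shGFP the 4 filled symbols lie at 1696 bp or less and at the 14.3th percentile or lower.

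The regions next to the intervals lay outside the rule that chose the loci, and in them the covered lengths were closer. The intervals were picked for their difference, so a contrast with the flanks follows in part from that choice. In the 500 kb on either side of Nr2f2, peaks covered 25.2 kb in shDnmt3L and 23.2 kb in shGFP, a ratio of 1.09. Around Nr2e1 they covered 151 kb in shDnmt3L and 141 kb in shGFP, a ratio of 1.07 that was 0.934 below the interval and 1.29 above it. Around Nr2f1 they covered 4.13 kb in shDnmt3L and 5.12 kb in shGFP, a ratio of 0.807, with 2 peaks in shDnmt3L and 3 in shGFP. None of these flanks held a peak of 10 kb or more in either list. Over the rest of chromosomes 13, 7 and 10 the ratios were 1.05, 1.04 and 1.02.

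The surroundings of the loci were unlike each other. Nr2f1 lay in a stretch nearly free of peaks, with 0 peaks in the lower 500 kb in both lists. The nearest peak below the interval was 1105644 bp away in shDnmt3L and 587874 bp in shGFP. Nr2e1 lay in peak-rich DNA, where flanks were covered to 15.1% in shDnmt3L and 14.1% in shGFP. In shGFP its own interval was covered to 6.53%, less than its flanks. Nr2f2 was between them, with flanks covered to 2.52% in shDnmt3L and 2.32% in shGFP, and its interval in shGFP to 2.58%.

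The rule ends at set positions, and the peaks just outside them can be given beside the members. Just below the Nr2f2 interval, a shDnmt3L peak at chr7:77394392-77396886 measured 2495 bp, scored 483 and had a shGFP partner. Above it the next shDnmt3L peak was 50426 bp away, 2204 bp wide, and shared. Just outside Nr2e1, the shDnmt3L peaks were 2000 bp wide below and 2375 bp above, both shared. Above Nr2f1 the next peak began on the same base in both lists, chr13:78544151, and measured 2078 bp in shDnmt3L and 1990 bp in shGFP. Over the whole 500 kb, 2 of 7 shDnmt3L peaks below Nr2f2 and 0 of 4 above it had no shGFP partner. The same held for 1 of 32 below Nr2e1, 4 of 23 above it and 0 of 2 above Nr2f1. Unshared peaks were thus also found outside the intervals, and 12.6% of the whole shDnmt3L list had no shGFP partner.

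**Figure D4:**
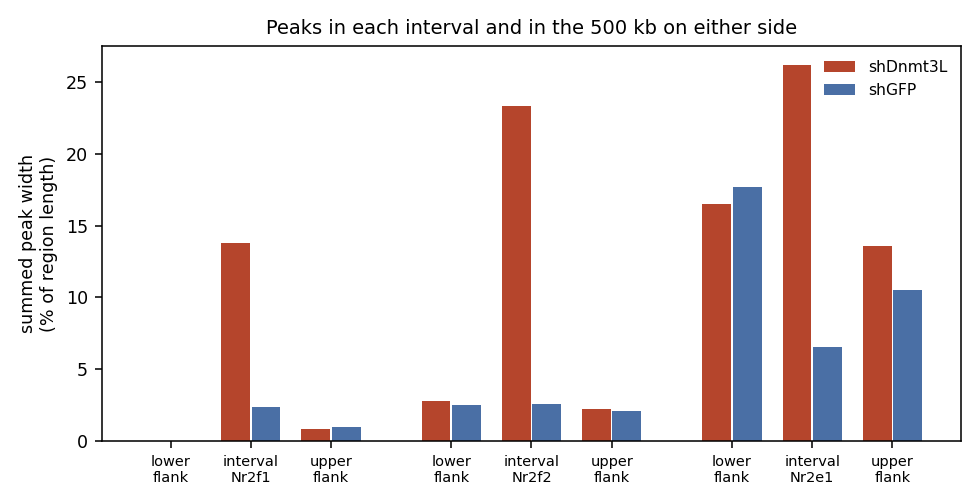
Summed peak width as a percentage of region length in the interval of each gene and in the 500 kb below and above it, with shDnmt3L at the left of each pair and shGFP at the right. The columns of a pair are closer in height in the flanks than in the intervals, though above Nr2e1 they reach 13.6% in shDnmt3L and 10.5% in shGFP. The intervals are covered to 13.8, 23.3 and 26.2% in shDnmt3L, against 2.37, 2.58 and 6.53% in shGFP, at Nr2f1, Nr2f2 and Nr2e1. The intervals, unlike the flanks, were picked for this difference.

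Tiles laid end to end over the genome give the background for a 2-fold difference, and larger folds were not counted. Among tiles as long as the Nr2f1 interval with at least 10 kb covered in the lists together, 5.26% of 6219 had at least 2-fold more covered length in shDnmt3L. For the length of the Nr2f2 interval it was 4.80% of 5710 tiles, and for that of Nr2e1 it was 5.24% of 6035. The opposite, at least 2-fold more in shGFP, was found in 2.38, 2.36 and 2.35% of the same tiles. All 3 loci were past 2-fold toward shDnmt3L. They were chosen for that difference, so their count is not evidence that receptor genes stand apart from other tiles.

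**Figure D5:**
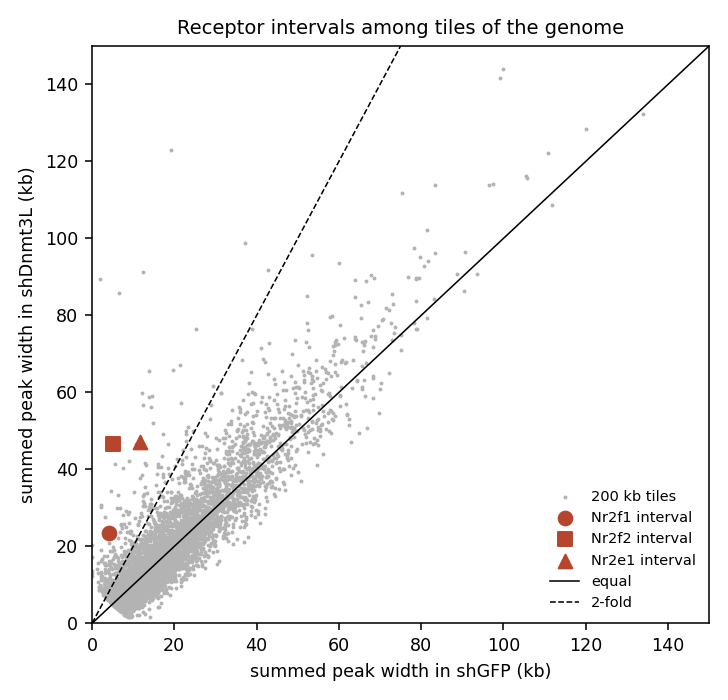
Summed peak width in kb in shDnmt3L (vertical) against shGFP (horizontal) for 5710 tiles of 200 kb and for the 3 gene intervals of 170 to 200 kb; the solid line marks equal values and the dashed line 2-fold. The intervals lie above the dashed line, at 23.4 against 4.04 kb for Nr2f1, 46.7 against 5.16 kb for Nr2f2 and 47.1 against 11.8 kb for Nr2e1.

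Shared peaks give the same stretch measured in both libraries. In 6 of the 7 the shDnmt3L peak was the wider, and over 37952 one-to-one pairs of the whole lists it was so in 81.7%. The extra width was 4384 and 124 bp at Nr2f1, −427 bp at Nr2f2, and 278, 98, 962 and 384 bp at Nr2e1. The median over the whole lists was 145 bp, with quartiles of 32 and 402 bp. In the same order, the shDnmt3L score percentile minus the shGFP one was 62.9 and −23.6 at Nr2f1 and −9.85 at Nr2f2. At Nr2e1 it was −3.94, −2.35, 16.6 and −9.06, and the median over the whole lists was −8.96. The lists differ in length, so these percentile differences are a description only. The pair with 4384 bp of extra width was the one at the end of the Nr2f1 run.

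Genes next to the receptor genes may also lie in the intervals. In the gene order of GRCm38, Nr2e1 has the protein-coding genes Snx3 and, beyond a long non-coding RNA and a pseudogene, Ostm1 as neighbours. Nr2f1 stands between the long non-coding RNAs 3110006O06Rik and A830082K12Rik, and Nr2f2 between Gm35325 and B130024G19Rik. Exons, introns and promoters could not be placed on mm9 with this table, so no peak was assigned to a gene or to a part of one. Other nuclear receptor genes were not analysed here for the same reason.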

How the data were processed

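The authors deposited 1 peak list per library, with a position and a score for each peak, per the file contents. Per the submitters' processing notes, MACS 1.4.1, CASAVA 1.8 and Bowtie 0.12.7 were used with mm9; their roles are not stated there. The deposited score has a floor of 50 in shDnmt3L and 50.01 in shGFP, which is what −log10 of p times 10 gives at a p of 1e-05. This reading rests on the values. No source used here gives the input control, the handling of duplicates or the read depth, each of which can alter how many peaks are called and how wide.

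The lists were analysed in Python 3.11.15 with pandas 2.3.3, scipy 1.17.1 and numpy 2.4.6, and starts were counted from 1. A peak belonged to a region by its midpoint and counted with its full width, and it was shared when it overlapped the other list by at least 1 bp. Intervals are 95% Poisson (exact) and Wilson. The overlap code was tested on simulated intervals. The peaks named were the widest and highest-scoring of each list at each gene and those of 10 kb or more. Others were named after their values were seen. The genes and measures were chosen with earlier results of these data known. The alternatives were a minimum score, equal list lengths, other interval ends, merging, stricter overlap, the widest peak left out and other tiles.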

Additional observations from a re-analysis of the deposited data

How the results depend on the processing

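Covered length was higher in shDnmt3L under all 21 alternative log2 ratios, from 2.10 to 3.05 at Nr2f1, 1.60 to 4.02 at Nr2f2 and 0.84 to 2.64 at Nr2e1. The loci were picked for this difference and the alternatives reuse the same peaks, so the common direction is no independent support. At Nr2f1 only the minimum score and leaving out the widest peak changed the ratio. Of 138 alternative values in all, 114 stayed within the range set for them and 24 moved. The range was a factor of 1.5, taken for percentiles on the distance to the top of the list, and for shared lengths and shares a Wilson interval on the number of peaks. That interval is wide with so few peaks: in the widened intervals the shared length was 17.4% at Nr2f2 and 36.9% at Nr2e1, still inside it. Each setting moved or kept values partly by construction, and the cause was not tested further. Narrowing the intervals removed no peak, and the cut to equal length left the shDnmt3L list whole, so no ratio could fall under that cut. Many of the 114 values could thus not move, and their number is no measure of stability. At a minimum score of 100 the log2 ratio at Nr2f2 was 3.78, and shGFP peaks numbered 1, 1 and 3 at Nr2f1, Nr2f2 and Nr2e1. At Nr2f1 and at Nr2f2, 0% of the shDnmt3L length lay under shGFP peaks. At both loci this minimum kept the shGFP peak of a shared pair and dropped its shDnmt3L partner, so the 0% reflects where the minimum fell. The top score percentiles were then 82.8, 94.3 and 99.5 in shDnmt3L and 14.4, 7.70 and 77.3 in shGFP, in the same gene order. Lists cut to equal length gave a log2 ratio of 4.02 at Nr2f2 and 2.64 at Nr2e1, with 1 and 3 shGFP peaks. Intervals widened by 100 kb at each end gave log2 ratios of 1.60 at Nr2f2 and 0.84 at Nr2e1. They held 16 shDnmt3L and 11 shGFP peaks at Nr2f2, with a top shGFP percentile of 97.1, and 15 and 18 peaks at Nr2e1. Without its widest shDnmt3L peak, Nr2e1 had a log2 ratio of 1.27. Counting the peak on the edge of Nr2e1 was added after the data were seen. No paired analysis was possible because there is 1 library a group. How depth limits weak peaks cannot be known from these lists.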
